A study of Mus musculus with 96 samples.

Results

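The sebaceous gland and fatty acid desaturation genes described here are 10 genes, Scd1, Scd2, Scd3, Fasn, Elovl3, Awat2, Pparg, Mgst1, Akr1c18 and Serpina3b, of the 22497 genes measured in mouse back-skin epidermis. They were taken by gene symbol. Of the 10 genes, 8 were chosen by name, whereas Akr1c18 and Serpina3b were picked for the pattern they show in these libraries, so their values are given as a description with no test. The series asked how a circadian clock restored to the epidermis, to the brain or to both shapes daily gene expression in the epidermis. Polyadenylated RNA was sequenced from female C57BL/6 mice aged 8 weeks that had spent 156 to 176 h in constant darkness. The hypodermis was scraped off and the epidermis was freed with dispase, and the cells were passed through filters; cells of hair follicles and sebaceous glands can be among them.

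The mutant groups carry a floxed stop cassette on both copies of Arntl, the gene of the clock activator BMAL1, and Cre restores the gene where it acts. RERE mice were Arntl stopFL/stopFL and carried both K14Cre and Syt10-Cre (tg/wt each), which the labels describe as clock restored in brain and epidermis. EpiRE mice were Arntl stopFL/stopFL with K14Cre tg/wt and no Syt10-Cre transgene. BRE mice were Arntl stopFL/stopFL with Syt10-Cre tg/wt and no K14Cre transgene. WT mice were Arntl wt/wt and carried both Cre transgenes, so every group in the comparison held at least 1 Cre driver. K14Cre acts in basal keratinocytes and in the cells that arise from them, which include sebocytes, and Syt10-Cre acts in the central clock of the brain. Each genotype was sampled at 6 circadian times (CT), CT0 to CT20 in steps of 4 h, with 4 mice a time, which gives 24 libraries a genotype and 96 in all. No group without any restored clock was analysed here.

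Sebocytes fill with lipid and burst to release sebum, a mix of triglycerides, wax esters and sterol esters. Fasn makes saturated fatty acids, Elovl enzymes lengthen them, and stearoyl-CoA desaturases (Scd) insert the double bond that makes monounsaturated fatty acids. Awat2 joins such fatty acids to fatty alcohols to form wax esters, and Pparg is a nuclear receptor that drives sebocyte maturation. In mouse skin Scd1 and Scd3 are known as sebaceous desaturases, and loss of Scd1 gives the asebia phenotype with shrunken glands. Keratinocytes outside the gland also make fatty acids, for the lamellar lipids of the skin barrier, so a gene such as Fasn or Scd2 need not report on the gland.

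Recovered reads totalled 11.1 to 19.9 M (mega) a library. Arntl averaged 3.89 log2 RPKM in RERE, 4.16 in EpiRE, 3.88 in BRE and 3.88 in WT libraries, so its total level did not separate the genotypes and is no check of the labels; its SD over 24 libraries was 0.78 in RERE, 0.31 in EpiRE, 0.14 in BRE and 0.83 in WT. Keratinocyte markers were abundant: the summed level of Krt5, Krt14, Krt1, Krt10 and Trp63 had medians of 20043 RPKM in RERE, 19464 in EpiRE, 21248 in BRE and 18947 in WT. Fat cell markers were low, with Adipoq at 0 reads in 82 and Plin1 in 86 of 96 libraries. Others had reads more often: Fabp4 was at 0 reads in 23 libraries, Cd36 in 6 and Lpl in 0. Lpl averaged -1.22 log2 RPKM, and the summed fat cell list reached 3.20 RPKM in an EpiRE library. The library EpiRE CT0 replicate 1 deviated from its group 1.73 times as much as the median library over all tested genes, and leaving it out changed no count of members called in a level comparison of EpiRE. Depth went weakly with the genes described here: within a genotype and time, the correlation with log2 depth was 0.15 for Serpina3b at the lowest and 0.37 for Akr1c18 at the highest.

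Of the desaturases, Scd1 was by far the most abundant and Scd3 was scarce. Levels are log2 RPKM (reads scaled to gene length and library size, on a log2 scale), which allows comparison between genes. Scd1 had a median of 7.07 in RERE (6.32 to 7.53), 6.96 in EpiRE (6.47 to 7.69), 7.27 in BRE (6.41 to 7.70) and 7.02 in WT libraries (6.49 to 7.54). These medians correspond to 135, 125, 155 and 130 RPKM. Scd2, a desaturase active in many tissues and early in skin development, had medians of 3.89 in RERE (2.75 to 4.77), 3.69 in EpiRE (2.19 to 4.55), 4.39 in BRE (3.07 to 5.26) and 3.72 in WT (2.51 to 4.88). Scd3 had medians of 0.41 in RERE (-1.14 to 2.77), -0.12 in EpiRE (-1.89 to 2.48), 0.13 in BRE (-1.11 to 2.96) and 0.40 in WT (-2.06 to 1.69), from 11 to 511 reads a library. The ranges of the 4 genotypes overlapped for all 3 genes. The 3 genes lie close together on chromosome 19 of the mm10 genome (GRCm38): Scd3 (ENSMUSG00000025202) at chr19:44203269-44244016 on the plus strand, Scd2 (ENSMUSG00000025203) at chr19:44293674-44306864 on the plus strand, and Scd1 (ENSMUSG00000037071) at chr19:44394455-44407879 on the minus strand. They are paralogs, and reads that match several of them may have been divided in ways that cannot be traced.

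Scd2 was higher in BRE epidermis than in each other genotype. The mean was 4.44 ± 0.52 in BRE and 3.68 ± 0.65 in WT (SD, n = 24 each), a difference of 0.77 ± 0.13 (SE) on the log2 scale, or 1.70-fold with a 95% interval of 1.41 to 2.05 (limma, adjusted p = 1.27e-05). The BRE mean was above the WT mean at 6 of 6 circadian times. At CT12 Scd2 stood at 3.98, 4.30, 4.40 and 4.19 in the BRE libraries, against 3.43, 3.57, 2.60 and 2.51 in the WT libraries. That is the time with no overlap, and at the other 5 times some WT libraries reached the BRE range. The share of all genes with no overlap at a time was not computed, so this separation is a description. RERE minus BRE was -0.64 ± 0.12 (adjusted p = 0.000109) and EpiRE minus BRE was -0.81 ± 0.16 (adjusted p = 7.36e-05), each with the BRE mean higher at 6 of 6 times. These comparisons share the BRE libraries and are not independent of each other. Scd2 remained called in BRE against WT in all 59 alternative fits, among them the 48 that left out a single library.

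Of the other members chosen by name, Scd1 was called in BRE against WT, at the edge of the threshold, and no member was called when RERE or EpiRE was set against WT. Scd1 averaged 7.19 ± 0.26 in BRE and 7.002 ± 0.318 in WT, a difference of 0.18 ± 0.07 or 1.14-fold (limma, adjusted p = 0.0471). Leaving out a single library ended that call for 28 of 48 libraries, with adjusted p-values of 0.0129 to 0.0761. The 2 members called in BRE against WT, both higher, were 2 of the 6 that passed the filter of 1 RPKM, beside 36.9% of all 11016 genes tested in that comparison, 12.5% called higher and 24.4% lower. In RERE against WT 0 of 6 members tested were called, beside 2.14% of all genes (0.787% higher and 1.35% lower). In EpiRE against WT 0 of 6 were called, beside 2.23% (0.931% higher and 1.3% lower), and in RERE against EpiRE 0 of 6, beside 0.00906%. Scd2 alone was called in RERE against BRE, beside 27.5% of all genes (17.4% higher and 10.1% lower), and in EpiRE against BRE, beside 34% (22.9% higher and 11.1% lower). The intervals show what the design could resolve: the RERE minus WT difference of Scd1 was 0.01 with an interval of -0.16 to 0.18, while that of Scd3 ran from -0.40 to 0.78.

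**Figure D1:**
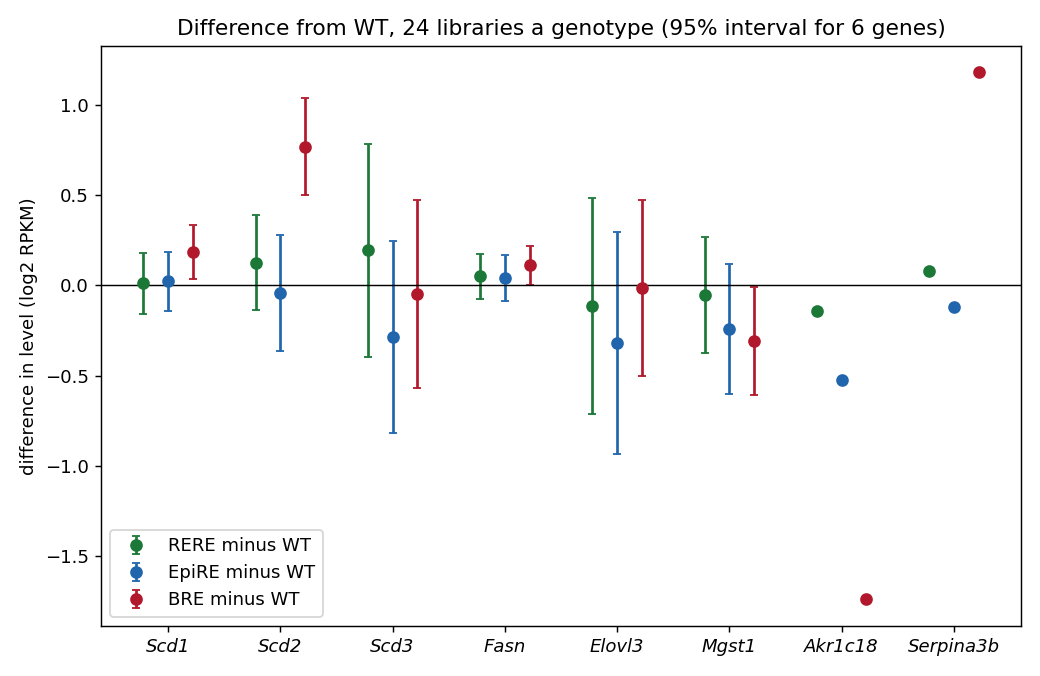
Difference in level from WT, in log2 RPKM, for the 8 genes that passed the filter, over 24 libraries a genotype, with 95% intervals for all but Akr1c18 and Serpina3b; points for RERE, EpiRE and BRE stand side by side. In BRE, Scd2 stands 0.77 above WT, Serpina3b 1.18 above it and Akr1c18 1.74 below it, and Akr1c18 and Serpina3b were picked for their pattern in these libraries.

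Fasn makes and Elovl3 lengthens fatty acid chains. Fasn (ENSMUSG00000025153, chr11:120805846-120824547, minus strand), the fatty acid synthase, had the narrowest range of the 10 genes, with medians of 5.49 in RERE, 5.42 in EpiRE, 5.54 in BRE and 5.48 in WT and a span of 4.79 to 5.94 over the 96 libraries. Its BRE minus WT difference was 0.11 ± 0.05 (limma, adjusted p = 0.108), and passed the threshold only in the fit without BRE CT12 replicate 1 (0.04004) among 59 alternatives. Elovl3 (ENSMUSG00000038754, chr19:46131897-46135694, plus strand), an elongase of the sebaceous gland and hair follicle, had medians of 0.27 in RERE (-3.13 to 1.61), -0.11 in EpiRE (-3.33 to 2.63), 0.40 in BRE (-1.15 to 2.01) and 0.50 in WT (-2.46 to 1.67). Those values rest on 2 to 187 reads a library. Elovl3 overlaps Pitx3 on the other strand, Scd3, Awat2 and Pparg each overlap 1 gene there too, and the sources used here do not say if counting used the strand. No genotype difference in Elovl3 was called, the adjusted p-values running from 0.356 to 0.970.

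Awat2 (ENSMUSG00000031220, chrX:100402221-100442717, minus strand) and Pparg (ENSMUSG00000000440, chr6:115360951-115490399, plus strand) were too low to pass the filter in any comparison, so their levels are a description. Awat2 averaged -0.73 in RERE, -0.79 in EpiRE, -0.71 in BRE and -0.54 in WT, from 4 to 83 reads a library. Pparg averaged -1.81 in RERE, -2.25 in EpiRE, -1.96 in BRE and -1.64 in WT. Pparg had 0 reads in 1 RERE library and in 2 EpiRE libraries, and at most 82 reads in any.

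Mgst1 (ENSMUSG00000008540, chr6:138140316-138156755, plus strand), a microsomal glutathione transferase enriched in sebocytes, had medians of 4.15 in RERE (3.07 to 5.06), 3.65 in EpiRE (2.79 to 6.08), 3.95 in BRE (3.05 to 4.98) and 4.26 in WT (2.73 to 5.31). The EpiRE libraries spread widest, with an SD of 0.95, beside 0.47 in RERE, 0.44 in BRE and 0.68 in WT. BRE minus WT was -0.31 ± 0.15 (limma, adjusted p = 0.0976), with the BRE mean lower at 6 of 6 times, and did not pass the threshold. It passed without WT CT4 replicate 3, WT CT12 replicate 2 or WT CT16 replicate 1, with adjusted p-values of 0.0455, 0.0435 and 0.0373. Of 10 other glutathione transferases, 7 passed the filter in BRE against WT. Of these 7, 2 were called, Gsto1 and Gstp1, both lower, a share near the 24.4% of all genes called lower. None of those 10 had a correlation over 0.5 with Mgst1 between libraries of the same genotype and time.

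**Figure D2:**
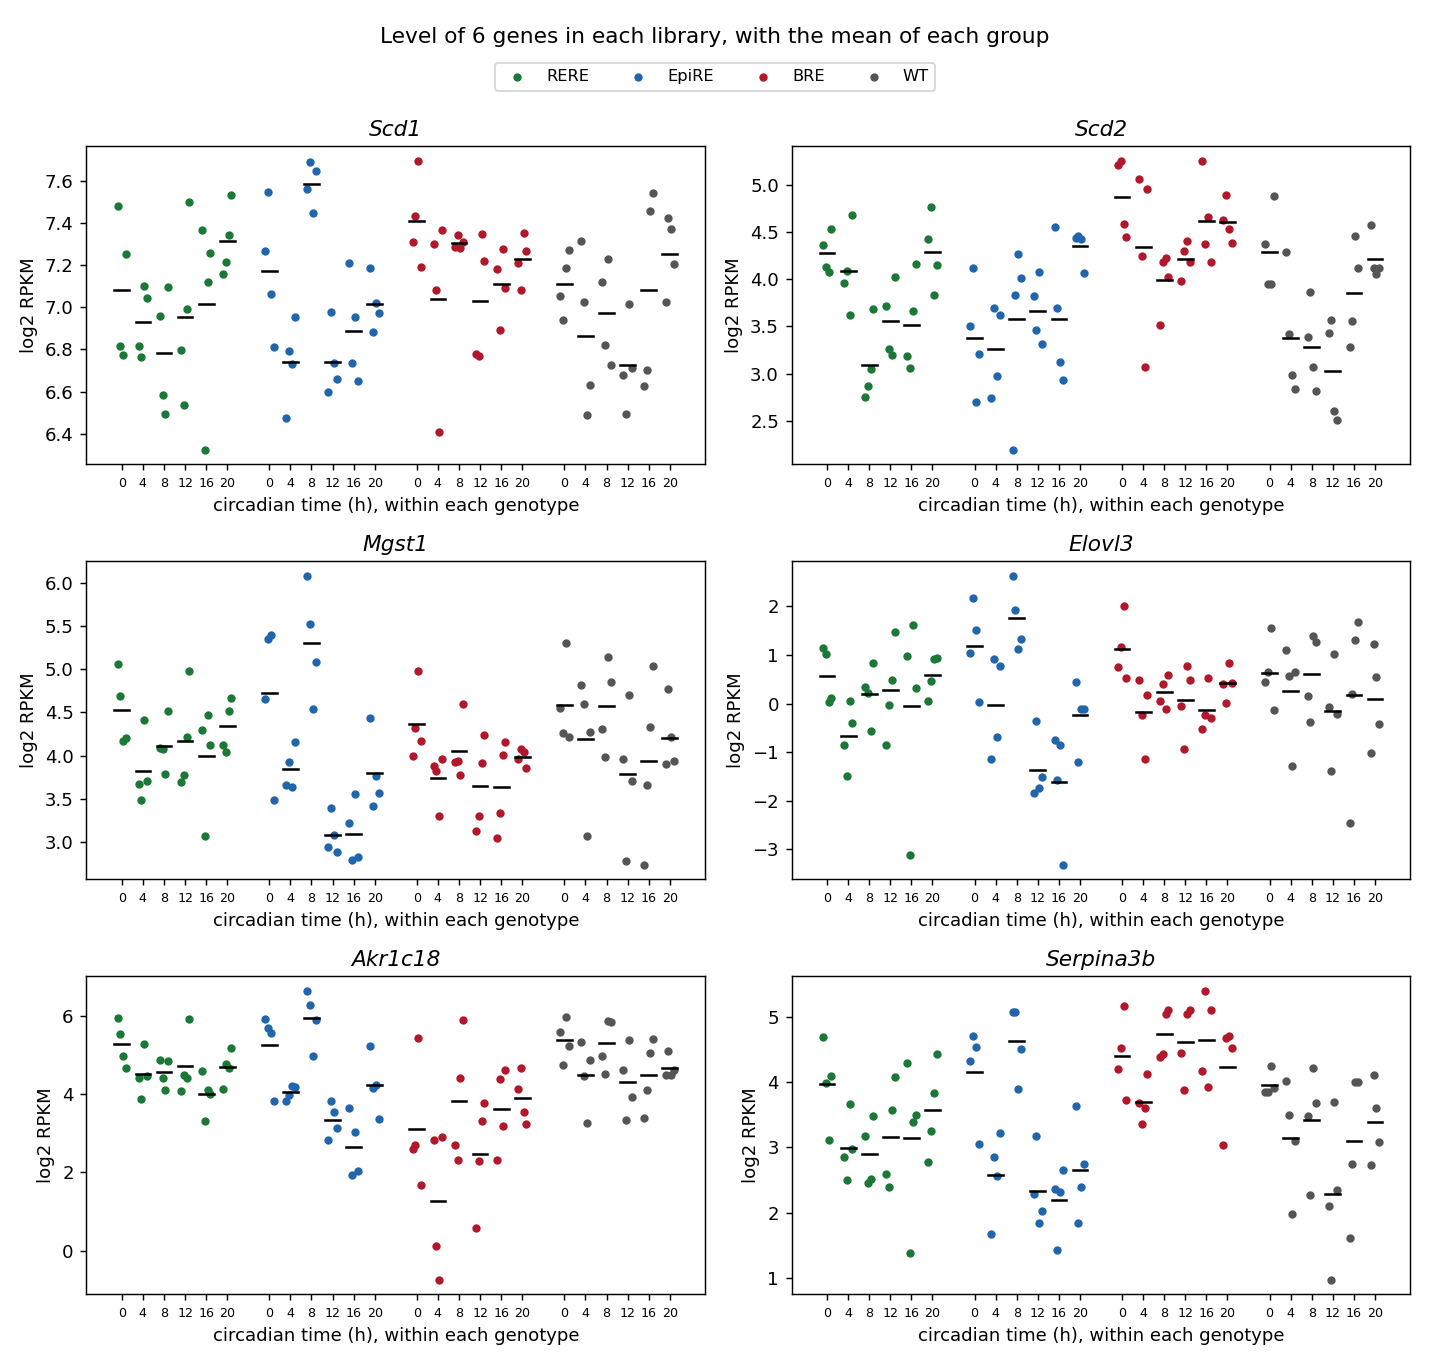
Level in log2 RPKM of Scd1, Scd2, Mgst1, Elovl3, Akr1c18 and Serpina3b in each of 96 libraries (points) with the mean of each group of 4 (bars), against circadian time within RERE, EpiRE, BRE and WT. In EpiRE, Mgst1 has its highest mean, 5.30, at CT8 and its lowest, 3.07, at CT12, and in BRE Akr1c18 is spread from -0.75 to 5.88.

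Akr1c18 and Serpina3b stood on opposite sides of WT in BRE. Both were picked for the pattern they show in these libraries. That pattern may include this difference, their spread or their correlations, so no test is given. Akr1c18 (ENSMUSG00000021214, chr13:4132615-4150654, minus strand), a reductase that inactivates progesterone, had medians of 4.53 in RERE (3.32 to 5.94), 4.05 in EpiRE (1.94 to 6.63), 3.05 in BRE (-0.75 to 5.88) and 4.81 in WT (3.25 to 5.96). BRE minus WT was -1.74, a 3.33-fold lower mean level, with BRE lower at 6 of 6 times and no overlap at 1 of them. At CT4 Akr1c18 stood at 2.82, 0.11, -0.75 and 2.91 in BRE, against 5.32, 4.47, 3.25 and 4.87 in WT. The BRE animals differed widely among themselves, so that the highest of them matched WT: the within-time SD was 1.44 in BRE, beside 0.57 in RERE, 0.70 in EpiRE and 0.73 in WT. Serpina3b (ENSMUSG00000066364, chr12:104127996-104139545, plus strand), a serine protease inhibitor of clade A, had medians of 3.32 in RERE (1.37 to 4.69), 2.80 in EpiRE (1.42 to 5.07), 4.44 in BRE (3.03 to 5.40) and 3.54 in WT (0.97 to 4.24). BRE minus WT was 1.18, or 2.26-fold, with BRE higher at 6 of 6 times and no overlap at 2 of them. For Akr1c18 and Serpina3b too, the share of all genes with no overlap at a time was not computed.

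Of 8 other genes of the Akr1c family, none passed the filter in BRE against WT. Akr1c19, named after its values were seen, was the highest of them in WT, and averaged -0.30 in RERE, -0.20 in EpiRE, -2.61 in BRE and 0.28 in WT; it is a relative of Akr1c18, so reads may be shared between the genes. Within a genotype and time, Akr1c19 and Akr1c18 had r = 0.76 over 96 libraries. Of 10 clade A serpins listed beside Serpina3b, 8 were in the tables and 2, Serpina3i and Serpina3j, passed the filter in BRE against WT, neither of them called. Serpina3j, the gene most like Serpina3b between libraries, averaged 2.47 in BRE and 2.55 in WT (limma, adjusted p = 0.809), where Serpina3b averaged 4.39 in BRE and 3.21 in WT.

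The gland genes varied more between mice of the same genotype and time than most genes do. Pooled over 24 groups, the SD between libraries of a group had a median of 0.16 over the 11028 genes that averaged 1 RPKM or more. It was 0.21 for Fasn (above 67.8% of those genes), 0.27 for Scd1 (82.5%), 0.50 for Scd2 (96.4%) and 0.53 for Mgst1 (96.9%). Elovl3 at 0.94 and Scd3 at 0.98 were above 99.2% and 99.3% of the genes. Serpina3b at 0.73 and Akr1c18 at 0.92 were above 98.7% and 99.2%. These 2 were picked for a pattern that may include their spread, so their ranks are a description only. The ranks are among all those genes and not among genes of like abundance. The median library had 33 reads of Elovl3 and 63 of Scd3, against 318 of Akr1c18 and 383 of Serpina3b. The widest range of Mgst1 in any group was 2.30, at WT CT16, beside a median range of 1.00 over the 24 groups. There Mgst1 stood at 2.73, 3.66, 4.33 and 5.04 in the 4 mice. In the same order of mice, Akr1c18 stood at 3.39, 4.09, 5.04 and 5.42, Serpina3b at 1.61, 2.74, 4.00 and 4.01, and Elovl3 at -2.46, 0.20, 1.31 and 1.67. Scd2 in those mice was 3.28, 3.56, 4.45 and 4.12. All 5 genes were lowest in the first of these mice, although over all groups Scd2 did not go with Mgst1, as given below.

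**Figure D3:**
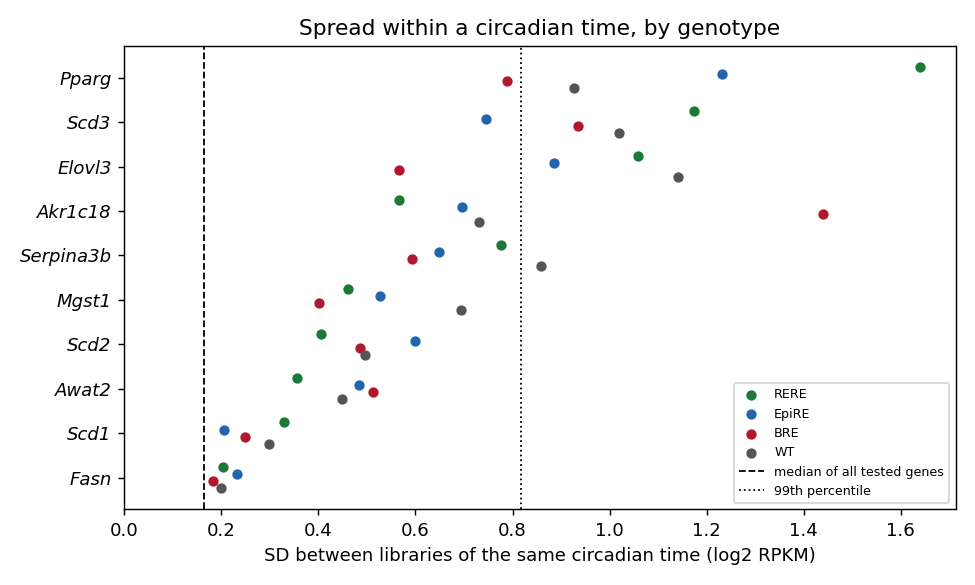
SD between libraries of the same circadian time, in log2 RPKM, for each of the 10 genes and each genotype; the dashed line is the median over all tested genes (0.16) and the dotted line their 99th percentile (0.82). Akr1c18 in BRE stands apart from the other genotypes at 1.44, and Fasn lies nearest to the median gene.

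Between mice of a group, 7 of the genes went up and down together and Scd2 did not go with them. The measure was Pearson's r over 96 libraries after subtraction of each group's mean; libraries share a protocol and the 7 genes were grouped after their values were seen, so the values are a description. Among Scd1, Scd3, Elovl3, Pparg, Mgst1, Akr1c18 and Serpina3b, the 21 pairs had r of 0.51 to 0.85 with a median of 0.68. Mgst1 and Elovl3 had the highest value, r = 0.85 (rho = 0.87, and 0.84 without the 2 libraries farthest from the median of the x axis). Mgst1 with Serpina3b had r = 0.80 (rho = 0.78), and Mgst1 with Akr1c18 had r = 0.73 (rho = 0.78). Scd2 with those genes other than Scd1 had r of 0.01 to 0.17, while Scd2 with Fasn had r = 0.64 (rho = 0.62, and 0.60 without the 2 farthest libraries). Scd1 lay between, with r = 0.72 to Mgst1, 0.59 to Fasn and 0.46 to Scd2. Awat2, the wax synthase, had r of 0.11 to 0.49 with the other 9 genes over all libraries, from 4 to 83 reads a library, but its values differed by genotype. Awat2 with Mgst1 had r = -0.16 in RERE, 0.15 in EpiRE, 0.75 in BRE and 0.65 in WT. Awat2 with Scd1 had r = -0.37 in RERE, 0.18 in EpiRE, 0.62 in BRE and 0.71 in WT, over 24 libraries each, and these differences were not tested. In a bulk sample, fewer gland cells and less RNA of these genes in each cell cannot be told apart.

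**Figure D4:**
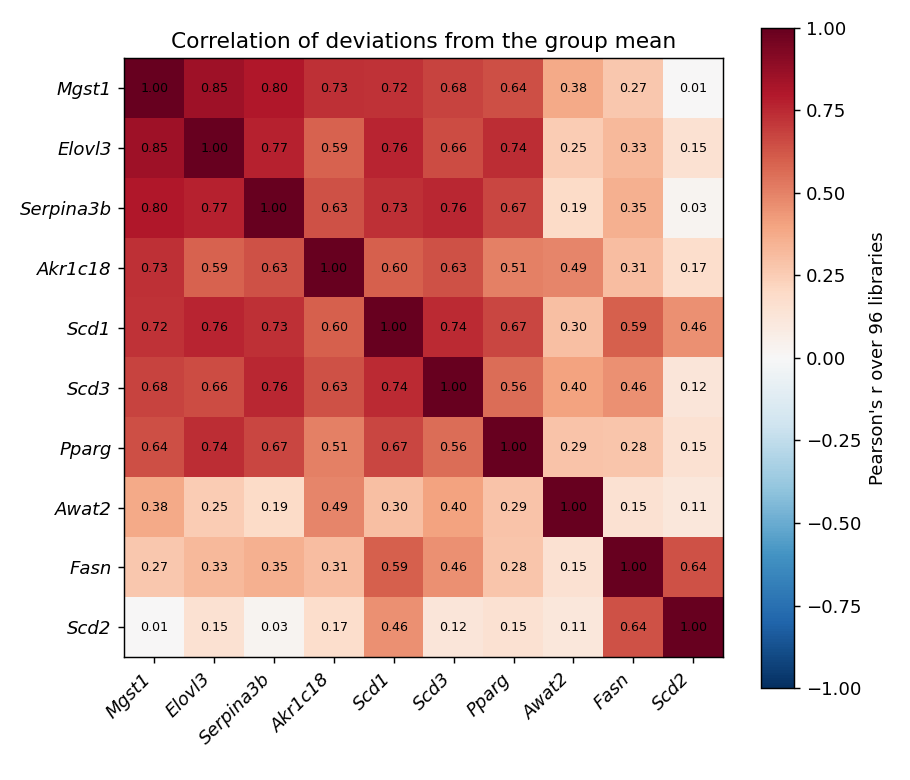
Pearson's r between each pair of the 10 genes over 96 libraries, after subtraction of the mean of each genotype and circadian time; red is positive and blue negative. A block from Mgst1 to Pparg has values of 0.51 to 0.85, and Scd2 has its highest value, 0.64, with Fasn.

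Genes outside the 10 that were most like Mgst1 between libraries included lipid genes. Of 11020 genes ranked by the same r, those nearest to Mgst1 included Cers4 (0.93), Fa2h (0.87), Far2 (0.85) and Soat1 (0.85). They make ceramides, 2-hydroxy fatty acids, fatty alcohols and cholesterol esters. Those nearest to Scd1 included Fa2h (0.82), Elovl6 (0.81), Soat1 (0.81) and Ces1d (0.80), and Fa2h and Soat1 were thus near to both. Those of Akr1c18 were Carns1 (0.81), Cyp2g1 (0.78), Plin2 (0.73), Cers4 (0.72) and Ces1d (0.66), and those of Serpina3b were Serpina3j (0.83), Far2 (0.81), Soat1 (0.78), Fa2h (0.77) and Carns1 (0.77). For Awat2 no gene exceeded 0.50, which Ets1 had. Scd2 and Fasn were added after their values were seen. The nearest to Scd2 were Lss (0.82), Sqle (0.78), Acaca (0.76), Cyp51 (0.72) and Acly (0.72), enzymes of cholesterol and fatty acid synthesis, and those nearest to Fasn were Sec16a (0.81), Acly (0.80), Lss (0.79), Stard4 (0.79) and Ptprf (0.79). The values of Fasn farthest from 0 were negative, with the ribosomal protein genes Rpl26 (-0.87) and Rps24 (-0.87).

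Markers of the gland beyond the 10 genes followed Mgst1 in part. Of 12 such markers, 7 had r over 0.5 with Mgst1: Soat1 (0.85), Far2 (0.85), Plin2 (0.82), Cidea (0.75), Awat1 (0.70), Mc5r (0.69) and Ldhb (0.54). Krt79, a marker of the infundibulum and gland duct, had r = -0.10. As a summed RPKM, in which abundant genes weigh most, the 12 markers had r = -0.01 with Mgst1. Summed lists of other cell types went with Mgst1 to differing degrees. The summed adipocyte list had r = 0.68 (its member Lpl alone 0.80), the immune list 0.57, the fibroblast list 0.43 and the muscle and vessel list 0.33, against -0.08 for keratinocyte markers and -0.21 for follicle sheath and bulge markers. The immune list summed to 44.2 to 130 RPKM in RERE, 49.9 to 136 in EpiRE, 36.4 to 145 in BRE and 40.5 to 177 in WT. The fibroblast list summed to at most 4.66 RPKM in RERE, 3.25 in EpiRE, 9.54 in BRE and 3.15 in WT. The part of these other cells in the shared variation was not tested.

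Within genotypes, Akr1c18 and Mgst1 had r = 0.88 in RERE, 0.82 in EpiRE, 0.73 in BRE and 0.95 in WT, over 24 libraries each. Serpina3b and Mgst1 had r = 0.88 in RERE, 0.78 in EpiRE, 0.42 in BRE and 0.93 in WT, the lowest value of both genes being that of Serpina3b in BRE. Akr1c18 minus Mgst1, a log2 difference within a library, averaged 0.46 ± 0.35 in RERE, 0.27 ± 0.50 in EpiRE, -0.87 ± 1.37 in BRE and 0.55 ± 0.27 in WT (SD, n = 24 each). Serpina3b minus Mgst1 averaged -0.87 ± 0.43 in RERE, -0.88 ± 0.44 in EpiRE, 0.49 ± 0.66 in BRE and -1.0002 ± 0.412 in WT. Set against Mgst1, Akr1c18 was also lower in BRE than in WT and Serpina3b higher. Mgst1 itself differed by -0.31 in that comparison, less than either gene, so this restates their differences in level and is no separate result. Elovl3 minus Mgst1 averaged -4.01 in RERE, -4.03 in EpiRE, -3.65 in BRE and -3.95 in WT, with SDs of 0.42 to 0.69.

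**Figure D5:**
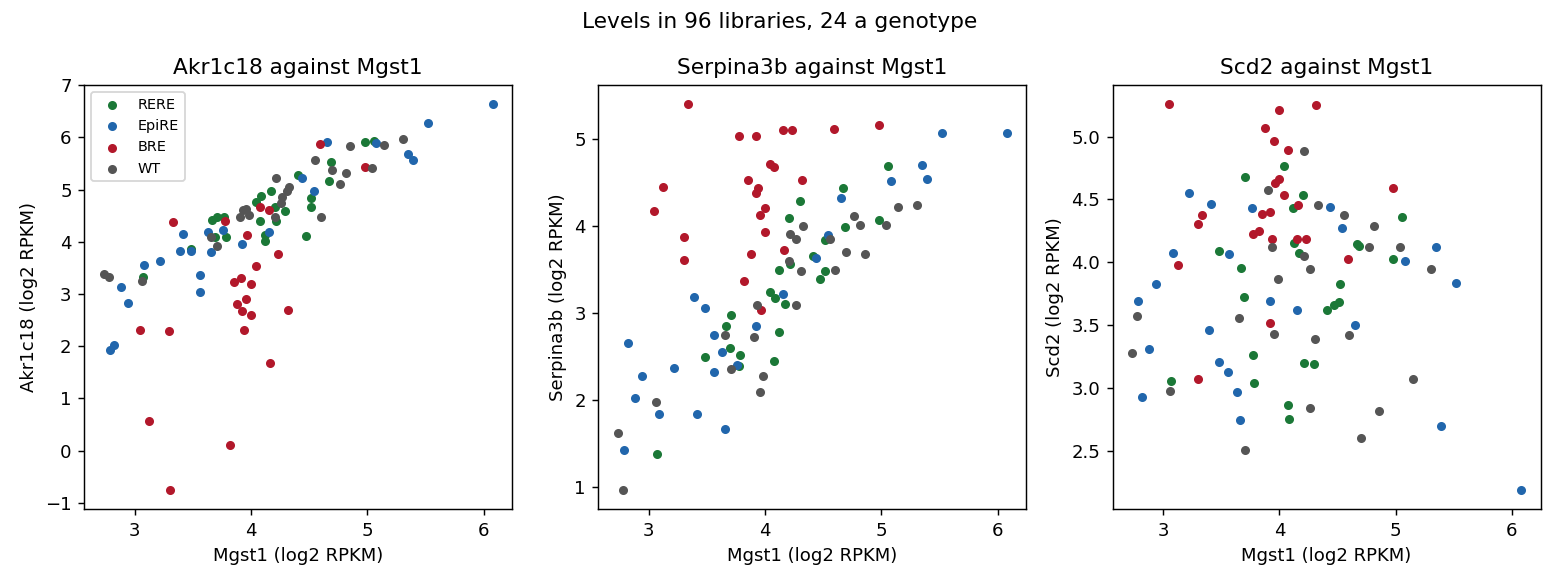
Level of Akr1c18, Serpina3b and Scd2 against Mgst1, in log2 RPKM, in each of 96 libraries coloured by genotype. Many BRE libraries lie below the others for Akr1c18 (mean difference from Mgst1 of -0.87) and above them for Serpina3b (0.49), with some overlap, and Scd2 shows no slope with Mgst1 (r of 0.01 within groups).

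The start regions of 4 of the co-varying genes and of Fasn are shown because the genes differ in how they vary; they are RefSeq windows of 300 bases on GRCm38.p6, from 250 bases before the annotated start to 50 after it, written 5′ to 3′ on the gene's strand, and capitals mark motif matches. Of the 10 genes, 7 had such a window.
Mgst1, chr6:138140277-138140576, plus strand: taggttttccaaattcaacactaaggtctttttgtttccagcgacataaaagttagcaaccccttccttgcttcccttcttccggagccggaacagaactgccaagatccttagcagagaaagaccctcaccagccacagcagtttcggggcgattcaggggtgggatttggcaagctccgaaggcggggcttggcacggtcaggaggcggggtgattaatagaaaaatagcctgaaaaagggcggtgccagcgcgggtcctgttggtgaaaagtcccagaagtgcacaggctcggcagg
Scd3, chr19:44203038-44203337, plus strand: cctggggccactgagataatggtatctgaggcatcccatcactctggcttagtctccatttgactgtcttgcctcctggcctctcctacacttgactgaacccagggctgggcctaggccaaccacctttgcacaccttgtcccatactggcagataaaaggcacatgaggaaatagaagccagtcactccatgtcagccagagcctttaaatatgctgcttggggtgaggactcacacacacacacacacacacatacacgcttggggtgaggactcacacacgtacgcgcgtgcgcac
Akr1c18, chr13:4150597-4150896, minus strand: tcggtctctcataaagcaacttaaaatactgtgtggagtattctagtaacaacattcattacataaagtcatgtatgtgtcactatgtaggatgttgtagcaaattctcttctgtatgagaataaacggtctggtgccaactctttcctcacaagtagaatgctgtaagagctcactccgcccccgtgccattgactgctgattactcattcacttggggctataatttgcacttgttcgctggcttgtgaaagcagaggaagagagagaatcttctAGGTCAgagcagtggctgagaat
Serpina3b, chr12:104127746-104128045, plus strand: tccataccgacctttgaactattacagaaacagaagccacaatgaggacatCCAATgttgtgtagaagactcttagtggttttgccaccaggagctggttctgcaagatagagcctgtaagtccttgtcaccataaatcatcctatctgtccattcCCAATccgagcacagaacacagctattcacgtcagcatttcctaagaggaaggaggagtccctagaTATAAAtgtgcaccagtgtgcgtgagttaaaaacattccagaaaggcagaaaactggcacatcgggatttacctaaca
Fasn, chr11:120824498-120824797, minus strand: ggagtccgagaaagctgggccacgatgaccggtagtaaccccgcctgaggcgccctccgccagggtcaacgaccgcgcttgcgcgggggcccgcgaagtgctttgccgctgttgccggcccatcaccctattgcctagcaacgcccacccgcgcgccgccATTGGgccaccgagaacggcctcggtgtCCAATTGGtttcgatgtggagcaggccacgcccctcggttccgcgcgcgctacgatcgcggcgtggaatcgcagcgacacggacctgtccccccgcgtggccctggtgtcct

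The motifs were searched on both strands. Serpina3b had the TATA box TATAAA at -28 from the start, where 13.6% of all 32851 windows hold it anywhere, and CCAAT at -199 and -94. Fasn had CCAAT at -90, -62 and -59, the last 2 overlapping on opposite strands, and 37.4% of all windows hold CCAAT. Akr1c18 had the nuclear receptor motif AGGTCA 27 bases after the start, which 16.3% of windows hold. In windows not printed here, Pparg had AGGTCA at -28 and, in a different window, at -9. Pparg also had TATAAA at -29 and CCAAT at -83, -144 and -22, and Awat2 had CCAAT at -121 and -85. The PPAR response element, AGGTCA repeated after 1 base and held by 0.0396% of windows, the sterol regulatory element TCACNCCAC, held by 1.24%, and the E-box CACGTG to which clock activators bind, held by 7.15%, were in none of the 11 windows of the 7 genes. Mgst1 and Scd3 had no match to any of these motifs. A match is a description of these letters, and no match says only that the letters are not in this window.

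Scd2 was called rhythmic in RERE and in WT. Rhythm was tested in each genotype by a cosine of 24 h. In RERE the Scd2 group means were 4.28 at CT0, 4.09 at CT4, 3.09 at CT8, 3.55 at CT12, 3.52 at CT16 and 4.29 at CT20. In WT they were 4.29, 3.38, 3.29, 3.03, 3.85 and 4.22 at the same times. The fitted amplitude was 0.57 ± 0.12 in RERE with a peak at CT22.7 (limma, adjusted p = 0.00393) and 0.64 ± 0.13 in WT with a peak at CT21.4 (adjusted p = 0.00223). The trough thus fell in the subjective day and early evening and the peak before the start of the subjective day. In RERE the call was lost without replicate 2 (adjusted p = 0.0566). In EpiRE the amplitude was 0.32 ± 0.17 (adjusted p = 0.589) and in BRE 0.38 ± 0.12 (adjusted p = 0.185), neither called. The test of a difference in rhythm from WT was not passed for Scd2 in RERE (adjusted p = 0.931), EpiRE (0.348) or BRE (0.647), so the rhythm is not shown to differ between the genotypes.

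Fasn in WT, with an amplitude of 0.17 ± 0.06 (limma, adjusted p = 0.0610), was called without WT replicate 1, and in 5 fits that each left out a single WT library. No other member chosen by name than Scd2 was called rhythmic with all libraries, beside 19.4% of all genes tested in RERE, 0% in EpiRE, 1.14% in BRE and 33.1% in WT. In EpiRE the count of 0 over all genes came with 1397 genes at an unadjusted p under 0.05, and limma-voom on the recovered reads gave 0 too. Differential rhythm against WT was called for 0% of all genes in RERE, 1.57% in EpiRE and 5.69% in BRE, and for none of the members chosen by name. In the authors' deposited tables, the JTK_CYCLE q-value of Scd2 was 0.0502 in RERE, 1 in EpiRE, 0.491 in BRE and 0.0537 in WT, and its BIOCYCLE q-value was 0.145 in RERE, 0.617 in EpiRE, 0.566 in BRE and 0.0562 in WT. No member had a q-value under 0.05 from either program in the authors' deposited tables.

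In EpiRE the gland genes differed between times, although no cosine was called. With circadian time as a factor of 6 levels, Mgst1 (limma, adjusted p = 0.00929) and Scd1 (0.0133) were called in EpiRE, beside 1.8% of all genes. Scd3 was called too (limma, adjusted p = 0.0114), which makes 3 of 5 members tested. Scd3 averaged 0.04 log2 RPKM over the EpiRE libraries, just above the filter of 0, and 1.98 at CT8. Without CT8 it did not pass the filter, so its call partly follows from the filter and is a description. The same test called Scd2 alone in RERE and WT, beside 15.2% and 20.3% of all genes, and no member in BRE, beside 0.283%. At CT8 the EpiRE libraries had Scd1 at 7.56, 7.69, 7.45 and 7.65, and Mgst1 at 6.08, 5.52, 4.54 and 5.08. At CT12 Scd1 stood at 6.60, 6.98, 6.73 and 6.66, and Mgst1 at 2.94, 3.39, 3.08 and 2.88. All 4 CT8 libraries were above all 4 CT12 libraries for both genes. These are the times of the highest and lowest Mgst1 means in EpiRE, so the separation is between extremes and is a description. The share of all genes that separate these times was not computed. Over the 6 times, the Mgst1 means in EpiRE were 4.72, 3.84, 5.30, 3.07, 3.10 and 3.79, and the Akr1c18 means were 5.24, 4.04, 5.94, 3.33, 2.66 and 4.24.

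Of the 10 genes, 9 had their highest EpiRE mean at CT8, Scd2 being the exception, and so did 9 of 12 other gland markers. The share of all genes with their highest EpiRE mean at CT8 was not computed. Many of these genes vary together between mice, and Akr1c18 and Serpina3b were picked from these data, so the counts are a description. Some markers were near the floor, Dgat2l6 having 0 reads in 47 of 96 libraries. Soat1, for one, averaged 2.31 at CT8 and -0.88 at CT12. Markers of other cells are given with no test: the immune list averaged 103 RPKM at CT0, 103 at CT8 and 65.6 at CT12, and the adipocyte list 1.61, 2.00 and 0.48 RPKM at these times. Their part in the result was not tested. Without the 4 CT8 libraries, Mgst1 was still called (limma, adjusted p = 0.0333), beside 1.97% of all genes, and Scd1 was not (0.181), while Scd3 did not pass the filter. Without EpiRE CT0 replicate 1, Mgst1 (0.0182) and Scd1 (0.0272) were called, beside 0.958% of all genes, and Scd3 again did not pass the filter. The times of EpiRE and BRE libraries rest on column names alone. In the companion tables of the same libraries the leading digit of the library codes followed the column order in 24 of 24 columns of RERE and of WT, but in 1 of 24 of EpiRE and 4 of 24 of BRE; the sources do not say what that digit stands for.

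Other genes of fatty acid synthesis differed in BRE. Of 19 genes for fatty acid synthesis, elongation and desaturation outside the 10, 14 passed the filter and 12 were called in BRE against WT, 9 higher and 3 lower, beside 36.9% of all genes (12.5% higher and 24.4% lower), with a median difference of 0.12, where the median over all genes was -0.05. Acacb, the mitochondrial acetyl-CoA carboxylase, differed by -0.51 ± 0.09 (limma, adjusted p = 3.90e-05). Elovl4, which makes the very long chains of barrier ceramides, was higher by 0.43 ± 0.06 (adjusted p = 4.64e-07), and Elovl5 differed by -0.37 ± 0.05 (adjusted p = 1.10e-07). None of these 14 genes was called in RERE against WT, nor in EpiRE against WT. Rhythm was called for 4 of 14 genes of the list in RERE, 0 of 13 in EpiRE, 0 of 14 in BRE and 8 of 14 in WT. Over all genes it was called for 19.4% in RERE, 0% in EpiRE, 1.14% in BRE and 33.1% in WT. The list was chosen with earlier results of these data known, so its count is a description.

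Ester synthesis and lipid droplet genes gave 6 calls among 13 tested in BRE against WT, 1 higher and 5 lower, a share near the 36.9% of all genes. Dgat2, which makes triglycerides, was higher by 0.49 ± 0.07 (limma, adjusted p = 1.13e-07), and Mgll, which breaks monoglycerides down, differed by -0.31 ± 0.06. Of 12 tested lipogenic regulators 5 were called, 1 higher and 4 lower, again near the share of all genes, among them Cebpb at -0.37 ± 0.08, Ppara at -0.29 ± 0.05 and Srebf2, the regulator of cholesterol synthesis, at 0.13 ± 0.04. The gland markers beyond the members showed 1 call among 7 tested, beside 36.9% of all genes, Acsbg1 at 0.32 ± 0.06, with a median difference of -0.04. The markers that followed Mgst1 most closely were not called: Soat1 differed by -0.03 ± 0.24 and Far2 by -0.04 ± 0.16.

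Of 5 keratinocyte markers, 2 were called in BRE against WT, beside 36.9% of all genes, and the list's median difference was -0.04. The 2 called, both keratins of differentiated layers, were higher, with Krt10 at 0.35 ± 0.06 (limma, adjusted p = 1.29e-05) and Krt1 at 0.36 ± 0.05 (adjusted p = 2.29e-08). The basal markers Krt5 at -0.04 ± 0.04, Krt14 at -0.10 ± 0.05 and Trp63 at -0.05 ± 0.04 were not called. Between mice of a group, Scd2 had r = 0.65 with Krt10 and 0.52 with Krt1. With the basal markers it had r of -0.07 (Krt5), -0.08 (Krt14) and -0.04 (Trp63). The summed keratinocyte list had r = 0.60 with Scd2 and -0.08 with Mgst1. Abundant genes weigh most in that sum, Krt10 above all, so the 0.60 does not hold for each marker. Krt1 was also higher in RERE than in WT, by 0.42 ± 0.05, and in EpiRE than in WT, by 0.42 ± 0.07, and was the 1 list gene of 5 called in each. Krt10 differed from WT by 0.14 ± 0.06 in RERE (limma, adjusted p = 0.300) and by 0.03 ± 0.07 in EpiRE, so that neither Krt10 nor Scd2 was called in these comparisons. Follicle markers were lower in BRE than in WT, with 4 of 5 tested called lower, beside 24.4% of all genes, among them Cd34 at -0.96 ± 0.28, Lhx2 at -0.94 ± 0.13 and Sox9 at -0.27 ± 0.09. Those 3 averaged less in RERE and EpiRE than in WT too: Cd34 -0.11, 0.07 and 0.77, Lhx2 2.05, 1.77 and 2.60, Sox9 3.81, 3.82 and 4.07. Krt15, the other follicle marker called lower in BRE (-0.17 ± 0.05), went the other way. It averaged 12.01 in RERE and 12.04 in EpiRE, above 11.95 in WT. In EpiRE against WT 2 of 5 were called lower, beside 1.3% of all genes, and in RERE against WT 0 of 6. Called higher than in BRE were 1 of 5 in RERE, beside 17.4% of all genes, and 1 of 4 in EpiRE, beside 22.9%. In BRE against WT 2 of 4 immune markers were called lower, beside 24.4% of all genes, Cd3e at -0.36 ± 0.13 and Cd74 at -0.34 ± 0.13. Their part in the differences of Scd2, Akr1c18 and Serpina3b was not tested.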

How the data were processed

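Per the submitters' processing notes, the mm10 build and these tools were used: featureCounts 1.6.0, HISAT2 2.2.1, edgeR, Trimmomatic 0.36 and SAMtools 1.3.1. The authors deposited, per the file headers, 4 BIOCYCLE tables with log2 RPKM per library, and 4 JTK_CYCLE tables. The deposited p-value and q-value columns of both programs were copied as the authors' own. The JTK_CYCLE tables hold 96 further columns whose codes match no label; these were not used. Whole reads were recovered for 22467 genes (99.87%), with 99.9998% of values within 0.1 read of a whole number and a prior of 0.250 reads, and served for depth and limma-voom.

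The test kept each gene whose average in the compared libraries reached 0 log2 RPKM (1 RPKM), and was run with limma 3.58.1 in R 4.3.3 (empirical Bayes with a mean trend), 2-sided for levels, where the fit had genotype and circadian time as factors, and by moderated F tests for rhythm (cosine and sine of 24 h) and differential rhythm. Benjamini-Hochberg adjusted p-values under 0.05 over all genes tested were called. No replicate pairing is given in the labels. The fits were tested on simulated data. The replicates are separate mice, per the labels. Motifs, correlations and spreads were computed in Python. Gene positions are from GENCODE vM21.

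The members and gene lists were chosen with earlier results of these data known. All 10 members are named. From each list, at most 3 called genes with the largest change are named, and for likeness the 5 genes with the highest r to Scd1, Mgst1, Awat2, Akr1c18 and Serpina3b, with Scd2 and Fasn added after seeing the data. The follicle marker Krt15 was also added after seeing the data. An item that this rule would name is not reported here. Alternatives were scaling, pseudocount, filter, replicate, block, shared spread, voom, time as a factor, and, added after seeing the data, single libraries and EpiRE without CT8.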

Additional observations from a re-analysis of the deposited data

Results flagged for a closer look

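In 240 groups of 4 libraries (10 genes in 24 groups), 8 libraries stood far from the other 3 of their group by Dixon's test at the 95% level. Chance flags about 1 group in 20. Scd2 was low in EpiRE CT20 replicate 4, at 4.06 log2 RPKM beside 4.43 to 4.46, and high in WT CT20 replicate 1, at 4.58 beside 4.05 to 4.12. Fasn was low in WT CT8 replicate 4, at 5.10 beside 5.50 to 5.57. Awat2 was low in RERE CT20 replicate 1, at -1.17 beside -0.67 to -0.58. Pparg in RERE CT16 replicate 2 was at -7.44, the value of 0 reads, beside -1.07 to -0.16. Akr1c18 was low in EpiRE CT0 replicate 4, at 3.82 beside 5.57 to 5.90. Serpina3b was low in BRE CT20 replicate 1, at 3.03 beside 4.53 to 4.71, and high in WT CT0 replicate 3, at 4.24 beside 3.85 to 3.91.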

How the results depend on the processing

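Scd2 in BRE kept its call against RERE, EpiRE and WT under every alternative run. The count of members called in BRE against WT, 2, was 1 with no filter on low values, 1 with the spread shared over 96 libraries, and 1 to 3 without a replicate or a single library. Scd1 was lost in those fits, Fasn was gained without BRE CT12 replicate 1 (limma, adjusted p = 0.04004), and Mgst1 was gained without WT CT4 replicate 3 (0.0455), WT CT12 replicate 2 (0.0435) or WT CT16 replicate 1 (0.0373). In EpiRE against BRE the count, 1, was 2 with median-of-ratios scaling, 2 with limma-voom and 1 to 2 without a replicate, again through Scd1. For rhythm, the count in RERE was 0 to 2 without a replicate or library, and in WT 1 to 2, there through Fasn, which was called without replicate 1, and in 5 fits that each left out a single library. Without RERE CT16 replicate 2, Scd1 was called rhythmic in RERE (adjusted p = 0.0368). In EpiRE the count was 1 with the shared spread (Mgst1, adjusted p = 0.0330), 3 with circadian time as a factor, 1 of these without CT8 and 2 without EpiRE CT0 replicate 1. Scd3, among the 3, did not pass the filter without CT8. The cause was not tested. Estimates that changed sign were those of members not called. With limma-voom these were Scd3 in EpiRE against WT (0.0341), BRE against WT (0.00953) and EpiRE against BRE (0.0377), and Elovl3 in EpiRE against WT (0.0770), BRE against WT (0.0119), EpiRE against BRE (0.0547) and RERE against EpiRE (-0.165). With median-of-ratios scaling, Elovl3 in BRE against WT was 0.0205.

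Without a replicate or library, estimates spanned 0 as follows. In RERE against WT, Scd1 ran from -0.0734 to 0.0799, Scd2 from -0.0510 to 0.220, Fasn from -0.00818 to 0.0945 and Elovl3 from -0.299 to 0.0620. In EpiRE against WT, Scd1 ran from -0.0394 to 0.0732, Scd2 from -0.0991 to 0.0608 and Fasn from -0.0262 to 0.110. In BRE against WT, Scd3 ran from -0.189 to 0.0693 and Elovl3 from -0.183 to 0.0743. In RERE against EpiRE, Scd1 ran from -0.124 to 0.119, Scd2 from -0.00448 to 0.284, Fasn from -0.0724 to 0.121 and Elovl3 from -0.0653 to 0.544. In RERE against BRE, Scd3 ran from -0.0218 to 0.559, Fasn from -0.108 to 0.000806 and Elovl3 from -0.211 to 0.0425. In EpiRE against BRE, Scd3 ran from -0.492 to 0.0857 and Mgst1 from -0.0792 to 0.255.

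The replicate numbers are no pairing in the labels, and same-numbered libraries of BRE and WT had a correlation over 0.1 in 12 of 24 pairs. A fit with the replicate block left the 2 calls in BRE against WT and changed no other count of members. Spread by the median absolute deviation was 0.16 for Fasn and 0.35 for Awat2. The median r over all 45 pairs, 0.51, was 0.62 within RERE, 0.46 within EpiRE, 0.53 within BRE and 0.69 within WT. Depth limits Awat2, Pparg, Elovl3 and Scd3.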
